A study of Mus musculus with 16 samples.

Results

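The genes described here are 6 transcriptional regulators of the circadian clock: the activators Arntl (also called Bmal1), Clock and Npas2, and the nuclear receptors Nr1d1 (REV-ERB alpha), Nr1d2 (REV-ERB beta) and Rora (ROR alpha). They were found as the non-control probes whose RefSeq accession maps to these symbols, which gave 11 probes of 41174 on the array, or 6 genes of the 24828 that were tested. Arntl, Npas2 and Nr1d2 had 1 probe each, Rora 2, and Clock and Nr1d1 3 each. Expression was measured in tibialis anterior, a fast muscle of the lower leg, of mouse offspring in 4 diet groups. Control dams were fed normally, and undernourished dams received 50% less food in week 3 of gestation, a model of low birth weight. Offspring of both kinds of dam then ate ad libitum (AL) or were kept on calorie restriction (CR). The 4 groups are called control AL and control CR after fully fed dams, and undernourished AL and undernourished CR after restricted dams. All groups share the tissue, the labels name no engineered allele, and the strain, age and sex of the mice, the length and degree of the offspring's restriction and the hour at which muscle was taken are not given in the sources used here. Muscle of 8 mice in each group was combined 2 by 2, so a value is that of a pool of 2 mice on 1 Agilent 1-colour array, with 4 arrays per group and 16 in all. Which mice share a dam is not given either, and the p-values treat pools as independent.

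In the textbook model of the clock, the proteins of Arntl and Clock pair up, bind E-box sequences and switch on the genes of their own repressors, the Period and Cryptochrome families. Npas2 is a close relative that can take the place of Clock. The same pair switches on Nr1d1 and Nr1d2, whose proteins bind response elements in the Arntl promoter and repress it, while Rora binds the same elements and activates it, which closes a second loop. In skeletal muscle this clock is known to govern daily rhythms of fuel use and of genes such as Myod1.

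The promoters of the genes whose results are described most fully are shown because this second loop runs through them. They are RefSeq sequences of the mouse build GRCm38.p6, from 250 bases before the gene's annotated start to 50 after it, written 5′ to 3′ on the gene's strand. All 6 genes had such a window, 9 in all with alternative starts. Capitals mark matches, on either strand, to the long response element (AAAGT directly followed by AGGTNA), to its core AGGTCA, to the E-box CACGTG and to the E-box-like CACGTT. In the Arntl window (chr7:113207261-113207560, plus strand) the capitals are AAAGTAGGTTA, from base -10 to base 1 of the transcript, and AAAGTAGGTCA, from base 27 to base 37, which holds the core. In the Nr1d2 window (chr14:18239057-18239356, minus strand) they are the core from base -77 to base -72. In the Nr1d1 window (chr11:98775328-98775627, minus strand) they are CACGTT on the opposite strand, which reads AACGTG from base -28 to base -23.
Arntl: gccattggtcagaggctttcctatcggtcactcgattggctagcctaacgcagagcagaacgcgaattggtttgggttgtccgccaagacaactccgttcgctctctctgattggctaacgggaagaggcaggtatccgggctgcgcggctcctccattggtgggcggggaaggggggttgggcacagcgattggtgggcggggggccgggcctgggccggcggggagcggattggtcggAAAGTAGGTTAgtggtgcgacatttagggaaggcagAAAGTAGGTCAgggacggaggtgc
Nr1d2: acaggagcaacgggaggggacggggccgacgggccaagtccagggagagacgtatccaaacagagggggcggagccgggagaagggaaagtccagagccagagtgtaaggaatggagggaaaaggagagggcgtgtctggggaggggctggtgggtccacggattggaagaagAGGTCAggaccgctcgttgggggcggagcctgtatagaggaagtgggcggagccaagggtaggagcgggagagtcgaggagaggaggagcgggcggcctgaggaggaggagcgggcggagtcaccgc
Nr1d1: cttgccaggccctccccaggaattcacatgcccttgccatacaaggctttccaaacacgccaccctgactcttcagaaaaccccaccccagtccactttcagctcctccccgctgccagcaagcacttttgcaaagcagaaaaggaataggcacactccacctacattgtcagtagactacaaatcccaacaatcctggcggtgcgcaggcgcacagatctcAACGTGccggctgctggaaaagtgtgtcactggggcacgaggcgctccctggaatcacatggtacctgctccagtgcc
The long element was searched because it is known from Arntl, so that its presence there is no finding. It occurred in 20 of 32851 windows of this length, a share of 0.0609%, the core in 16.3%, CACGTG in 7.15% and CACGTT in 4.68%. Among the members the core was also found in 1 of the 3 Clock windows, and CACGTG in none of the 9. These matches describe letters within the window and are no evidence of binding. The 20 windows with the long element belong to 19 genes, of which 10 were measured, Arntl included. Of these 10, 2 were called higher and 2 lower under restriction in control offspring, where 17.2% of all genes were called higher and 15.1% lower. Stab2, a scavenger receptor of endothelium, rose by 1.08 ± 0.21 log2 units there (limma, adjusted p = 0.00163) and by 0.94 ± 0.21 in undernourished offspring (adjusted p = 0.00718). Zfp385b stood at 1.06 ± 0.22 and 0.64 ± 0.22 (adjusted p = 0.00251 and 0.0561). The 2 called lower were Arntl and Cyp3a11, the latter at -0.81 ± 0.23 and -0.78 ± 0.23 (adjusted p = 0.016 and 0.0288). The Cyp3a11 probe was dim, with a processed signal of 19.8 to 49.9. Acaca was not called in control offspring (0.55 ± 0.23, adjusted p = 0.0742) but rose by 1.1 ± 0.23 in undernourished offspring (adjusted p = 0.00416).

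Values are log2 of the array's processed signal minus the array's 75th percentile of that signal, so 0 is the level of the 75th percentile. They are not comparable between probes. Differences are in log2 units with their standard error from limma, fitted over all 24828 genes with 4 arrays per group, and a gene is called at a Benjamini-Hochberg adjusted p under 0.05. The tissue label was checked with 10 skeletal muscle markers, which were well above background on all arrays, with medians from 8.72 to 9.59. AL arrays also carried transcripts of other tissues. The median of 19 brain markers lay from -1.67 to 1.12 on control AL arrays, from -2.49 to -0.97 on undernourished AL arrays and from -6.36 to -5.53 on CR arrays. Under restriction 17 of the 19 were called lower in control and 12 in undernourished offspring, with 1 higher in each. Their summed signal, in units of the 75th percentile, was 33.3 to 94.2 in control AL, 26.7 to 39.1 in undernourished AL, 29.8 to 39.7 in control CR and 29.2 to 31.7 in undernourished CR, with 9 to 14 of 19 still well above background on CR arrays. Medians of 10 skin markers reached 1.81 in control AL and -1.57 at most elsewhere, and 9 of the 10 were called lower under restriction in control and 0 in undernourished offspring. Of 6 leukocyte markers 5 were called lower in control and 0 in undernourished offspring, with medians from -2.34 to -1.47 in control AL, -3.60 to -2.91 in control CR, -3.26 to -1.70 in undernourished AL and -3.27 to -2.59 in undernourished CR. AL arrays were on slides 1 and 2 and CR arrays on slides 3 and 4, scanned on different days, so offspring diet and slide or scan day cannot be told apart. Since this is bulk tissue, fewer cells of a type and less RNA per cell cannot be told apart either.

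Arntl, the obligate activator of the clock, was lower in restricted muscle. In control AL its log2 signal was 1.21, 1.07, 1.84 and 0.87 in replicates 1 to 4, and in control CR it was -0.35, 0.28, 0.74 and -0.16. Every restricted pool of control offspring lay below every pool fed freely. Arntl thereby fell by 1.12 ± 0.36 (limma, adjusted p = 0.0273), which is 2.17-fold, with a 95% interval from -1.89 to -0.35. In undernourished AL it stood at 1.68, 1.52, 1.33 and 2.33, and in undernourished CR at -0.04, 1.33, 0.06 and 1.37. Here replicates 2 and 4 of the restricted group reached the lowest freely fed pool, and the other pair lay over 1 unit below it. The difference of -1.04 ± 0.36 was of like size and narrowly missed the threshold (limma, adjusted p = 0.0541, 95% interval -1.80 to -0.27). The interaction of both diets was 0.08 ± 0.51 for Arntl (limma, adjusted p = 0.965), with an interval from -1.0 to 1.17 that is too wide to show equal responses.

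The Arntl call in control offspring depended on single arrays. Without control AL replicate 1 or 3, or control CR replicate 1 or 4, the difference was between -1.13 and -0.92 and adjusted p between 0.0545 and 0.0814. Averaged over both maternal diets, a contrast added after the values were seen, Arntl fell by 1.08 ± 0.25 (limma, adjusted p = 0.00344) and was called with each of the 16 arrays left out. That call was lost with the authors' deposited log2 values (-0.55, adjusted p = 0.0549), with the log2 brain median as a covariate (-1.08 ± 1.01, adjusted p = 0.537) and without 5 arrays (-1.06, adjusted p = 0.0551). Those 5 are the arrays richest in skin or liver transcripts, control AL replicates 1 to 3, undernourished AL replicate 3 and undernourished CR replicate 2. Scaling each array to its median gave -0.81 (adjusted p = 0.0848) and the authors' deposited log2 values gave -0.64 (adjusted p = 0.122) in control offspring. The median over all genes was itself 0.38 and 0.29 under those settings, against 0.06 here. Relative to that median Arntl stood at -1.19 and -0.93, against -1.18.

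Nr1d2, the repressor REV-ERB beta, was higher in restricted muscle of both kinds of offspring. Its log2 signal was 2.31, 2.56, 2.43 and 3.12 in control AL, against 3.34, 3.05, 3.26 and 3.32 in control CR. Control AL replicate 4 was within the range of the restricted pools and the other 3 were below it. Nr1d2 rose by 0.64 ± 0.15 (limma, adjusted p = 0.00466), a 1.56-fold difference. In undernourished AL it stood at 2.55, 2.73, 2.74 and 2.55, and in undernourished CR at 3.30, 3.18, 3.24 and 3.26. These groups did not overlap, and the restricted pools spanned only 0.12 units. The rise was 0.60 ± 0.15 (limma, adjusted p = 0.0123), or 1.51-fold, and the interaction was -0.04 ± 0.21 (adjusted p = 0.952).

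Nr1d2 was set beside the brain markers on the control AL arrays. The brain median was 1.12, 0.74, -1.13 and -1.67 in replicates 1 to 4, and Nr1d2 was highest in replicate 4, where they were lowest. In undernourished AL the brain median was -0.97, -1.59, -1.69 and -2.49, and there Nr1d2 was as low in replicate 4, the lowest in brain markers, as in replicate 1. With the linear brain signal as a covariate, added after the values were seen, the rise was 0.36 ± 0.18 in control offspring (limma, adjusted p = 0.227) and 0.52 ± 0.14 in undernourished offspring (adjusted p = 0.014). With the log2 brain median, which separates AL from CR arrays completely, Nr1d2 stood at -0.19 and -0.01 (adjusted p = 0.846 and 0.985). When the 5 arrays richest in skin or liver transcripts were left out, control AL was left with replicate 4 alone, assumed to vary like the other groups. The difference in control offspring was then 0.13 for Nr1d2 (adjusted p = 0.695) and -0.74 for Arntl (adjusted p = 0.469), while Nr1d2 was still called in undernourished offspring (0.65, adjusted p = 0.0105).

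**Figure D1:**
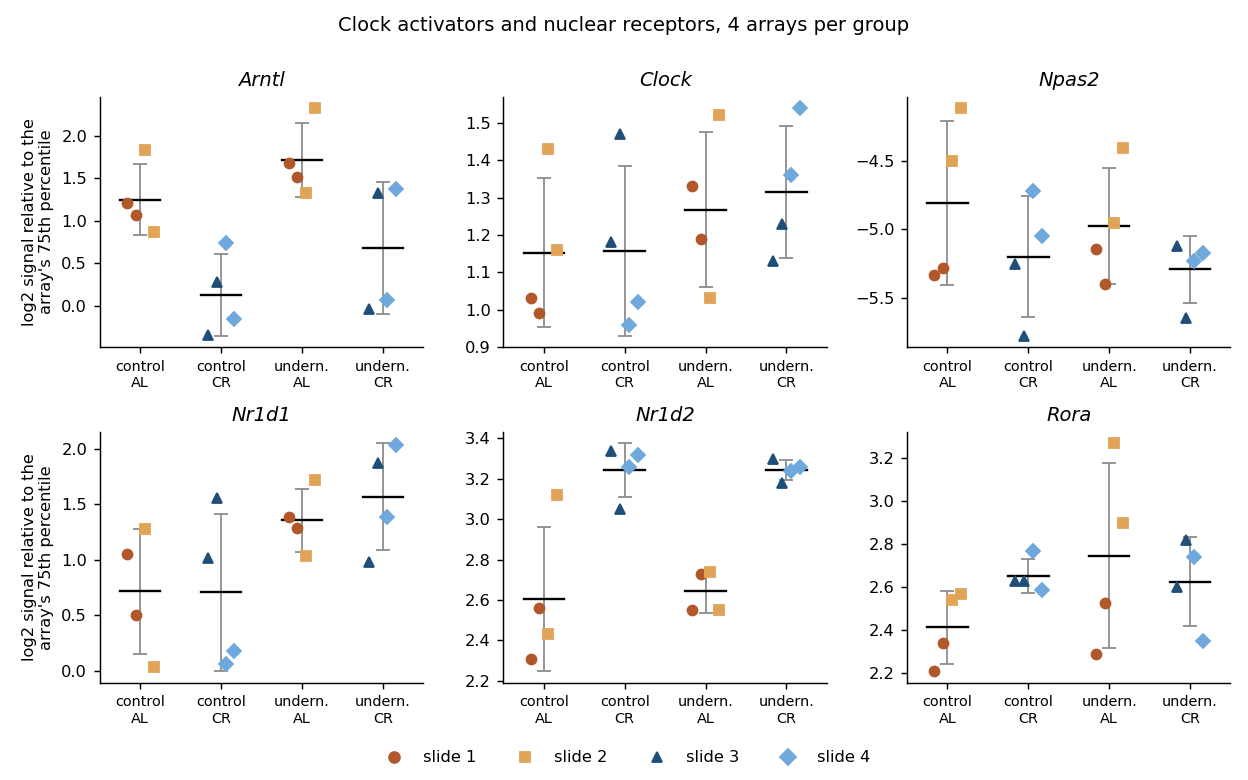
Log2 signal of each gene relative to the array's 75th percentile (y axis) in the 4 diet groups (x axis). Points are arrays marked by slide, lines are group means and bars 1 SD (n = 4). Arntl is lower and Nr1d2 higher in CR, with overlap in Arntl among undernourished offspring and in Nr1d2 among control offspring.

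Clock, the partner of Arntl, had no difference that passed the test on its brightest probe. Its group means were 1.15 ± 0.20 in control AL, 1.16 ± 0.23 in control CR, 1.27 ± 0.21 in undernourished AL and 1.32 ± 0.18 in undernourished CR (SD, n = 4). All groups overlapped. The differences of restricted from free feeding were 0.00 (95% interval -0.32 to 0.33) and 0.05 (-0.27 to 0.37), with limma adjusted p of 0.986 and 0.85. With the authors' deposited log2 values Clock was called higher in both, by 0.47 and 0.57 (adjusted p = 0.00539 and 0.00152), or 0.18 and 0.33 relative to the median of all genes there. The 3 Clock probes disagreed. Probe A_52_P161365, the dimmest with a processed signal of 13.1 to 30.5, stood at -4.44, -4.32, -4.27 and -4.50 in control AL and at -5.13, -5.67, -5.56 and -5.19 in control CR. It did not overlap between these groups and fell by 1.0 ± 0.19 (limma over 32081 probes, adjusted p = 0.00106). In undernourished offspring its difference was -0.40 ± 0.19 (adjusted p = 0.141), where undernourished CR replicate 4 stood at -4.31, above all freely fed pools. Probe A_52_P334677 differed by 0.18 ± 0.16 and 0.10 ± 0.16 (adjusted p = 0.417 and 0.693). The part of the transcript each probe reads was not used here.

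Npas2, the relative of Clock, was close to background. Its processed signal was 11.1 to 24.4, and it was well above background on 13 of 16 arrays: 3 of control AL, 2 of undernourished AL and all 4 of each CR group. Restricted minus free feeding was -0.39 ± 0.30 in control offspring (limma, adjusted p = 0.335) and -0.32 ± 0.30 in undernourished offspring (adjusted p = 0.478). The arrays overlapped in both comparisons. Over 12 other settings Npas2 ran from -2.95 to -0.01 in control offspring, called in 3, and from -2.19 to -0.06 in undernourished offspring, called in 2. It was called lower in both with normexp background correction (-0.43 and -0.56, adjusted p = 0.0258 and 0.00626) and with the log2 brain covariate (-2.95 and -2.19, adjusted p = 0.0351 and 0.0135), and in control offspring with the linear one (-1.15, adjusted p = 0.0354).

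Nr1d1, the other REV-ERB repressor, was not called under restriction. Its log2 signal was 1.05, 0.50, 1.28 and 0.03 in control AL, and control CR had 1.02, 1.56, 0.06 and 0.18. Both groups spanned over 1 unit and overlapped almost wholly, and the difference was -0.01 ± 0.35 (limma, adjusted p = 0.988). In undernourished AL it stood at 1.39, 1.29, 1.03 and 1.72 and in undernourished CR at 0.98, 1.87, 1.39 and 2.04, a difference of 0.21 ± 0.35 (adjusted p = 0.709). The intervals of this brightest probe, -0.76 to 0.74 and -0.54 to 0.96, include a rise of the size seen for Nr1d2. Probe A_52_P130952 was less variable, with differences of 0.19 ± 0.18 and 0.05 ± 0.18 (limma over 32081 probes, adjusted p = 0.465 and 0.878). The dimmest probe, A_52_P130961, gave 0.21 ± 0.33 and 0.03 ± 0.33 (adjusted p = 0.666 and 0.957). The difference between Nr1d1 and Nr1d2 was not tested. The authors' deposited log2 values gave Nr1d1 differences of 0.45 and 0.74, and called it when averaged over maternal diets (0.59, adjusted p = 0.0299).

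Rora, the activator of the second loop, stood at 2.21, 2.34, 2.54 and 2.57 in control AL and at 2.63, 2.63, 2.77 and 2.59 in control CR. The groups did not overlap, yet the difference of 0.24 ± 0.18 was not called (limma, adjusted p = 0.336). The probe A_51_P477779 of Rora gave -0.01 ± 0.17 (adjusted p = 0.96). In undernourished offspring Rora spread from 2.29 to 3.27 in AL and from 2.35 to 2.82 in CR, a difference of -0.12 ± 0.18 (adjusted p = 0.675). Its direction there turned with the authors' deposited log2 values, which gave 0.46 (adjusted p = 0.0276), or 0.22 relative to the median of all genes. In control offspring those values gave 0.70 (adjusted p = 0.00166), or 0.41 relative to that median. Array-median scaling gave 0.55 (adjusted p = 0.0244), but relative to the median this was 0.17, against 0.18 with the 75th percentile.

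In all, 1 of the 6 genes rose (Nr1d2) and 1 fell (Arntl) under restriction in control offspring, where limma called 32.3% of all genes, 17.2% higher and 15.1% lower. In undernourished offspring 1 of the 6 was called (Nr1d2, higher), against 20.3% of all genes, 10.4% higher and 9.86% lower. Averaged over maternal diets 2 of 6 were called, against 43% of all genes, 22.9% higher and 20.1% lower. These counts are near the background and are no result about the 6 genes as a set. The median difference of the 6 genes was 0.00 in control and -0.04 in undernourished offspring, beside 0.06 and 0.00 over all genes.

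**Figure D2:**
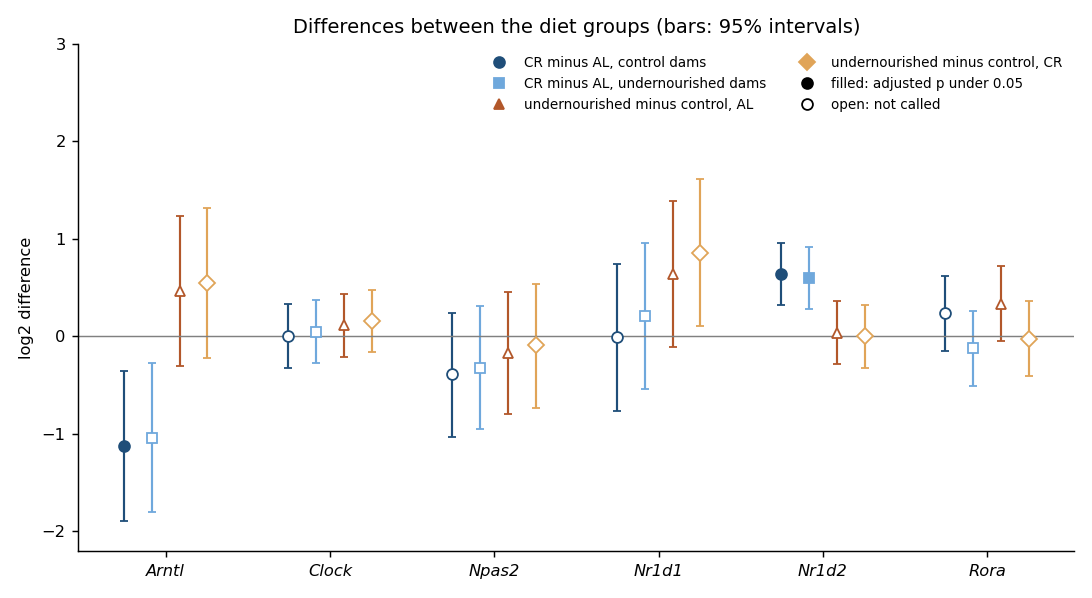
Log2 difference (y axis) of each gene (x axis) in the 4 pairwise diet comparisons, with 95% intervals from limma (n = 4 arrays per group). Filled symbols mark the calls: Arntl at -1.12 and Nr1d2 at 0.64 and 0.60; all maternal diet differences are open.

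Maternal undernutrition changed none of the 6 genes at the threshold. In freely fed offspring 0 were called and 0 had an unadjusted p under 0.05, while limma called 0.0322% of all genes, 0.0121% higher and 0.0201% lower, and 19.3% had an unadjusted p under 0.05. In restricted offspring 0 were called and 1, Nr1d1, had an unadjusted p under 0.05, while limma called 0% of all genes and 2.88% had an unadjusted p under 0.05. Nr1d1 was 0.64 ± 0.35 higher in the offspring of undernourished dams under free feeding (limma, adjusted p = 0.336) and 0.86 ± 0.35 higher under restriction (adjusted p = 1). Undernourished CR replicates 2 and 4 were above all control CR pools, and replicates 1 and 3 were within their range. Averaged over offspring diets, a contrast added after the values were seen, the difference was 0.75 ± 0.25 (unadjusted p = 0.00857, limma adjusted p = 0.454). That contrast called 0% of all genes, with 2609 genes at an unadjusted p under 0.05. The remaining differences by maternal diet ranged from -0.17 for Npas2 to 0.55 for Arntl. The interaction of both diets called 0 of the 6 genes, 0 of them at an unadjusted p under 0.05, and 0.00403% of all genes, of which 9.65% had an unadjusted p under 0.05.

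Slides could be compared within an offspring diet, since each held both maternal diets. On slides 1 and 2 undernourished minus control Nr1d1 was 0.56 and 0.72, but 0.13 on slide 3 and 1.59 on slide 4, each from 2 arrays per group (standard error 0.44). The difference between slides 3 and 4 in this contrast was 1.47 ± 0.62 (limma, unadjusted p = 0.0384, adjusted p = 0.999). Of the 6 genes, 0 differed between the CR slides and 2 between the AL slides, where limma called 1.26% of all genes (1.09% higher and 0.169% lower) and 11.8% (4.45% higher and 7.33% lower). Between slide 2 and slide 1 Npas2 was higher by 0.80 ± 0.19 and Rora by 0.48 ± 0.13 (adjusted p = 0.0182 and 0.0352). With each of the 16 arrays left out in turn, the Npas2 call held in 12 and the Rora call in 8, and both were lost without control AL replicate 1 or 4. The Npas2 call was also lost without undernourished AL replicate 2 or 4, and the Rora call without control AL replicate 2 or 3, undernourished AL replicate 1 or 3 or control CR replicate 1 or 2. The brain median was also higher on slide 1 (-1.59 to 1.12) than on most arrays of slide 2 (-2.49 to -1.13). The part of these transcripts in the slide difference was not tested beyond the covariate, with which neither gene was called.

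The 3 Nr1d1 probes also differed among themselves. The second brightest, A_52_P130952, was higher in undernourished AL than in every control AL pool (-1.99, -1.94, -1.84 and -1.54 against -2.28, -2.69, -2.06 and -2.77), a difference of 0.62 ± 0.18 (limma, adjusted p = 0.139). In restricted offspring it was 0.48 ± 0.18 higher (adjusted p = 1). The dimmest, A_52_P130961, separated the slides of the CR arrays. Slide 3 gave -4.05 and -3.98 for control CR and -3.90 and -3.47 for undernourished CR, all below slide 4 with -2.94 and -2.67 for control CR and -2.59 and -2.82 for undernourished CR. The difference was 1.1 ± 0.13 (limma, adjusted p = 0.00525), while the brightest probe was 0.44 ± 0.31 lower on slide 4 (adjusted p = 0.843). In the annotation the ends of Nr1d1 and Thra, the gene of thyroid hormone receptor alpha, overlap, and which probe lies there was not examined.

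**Figure D3:**
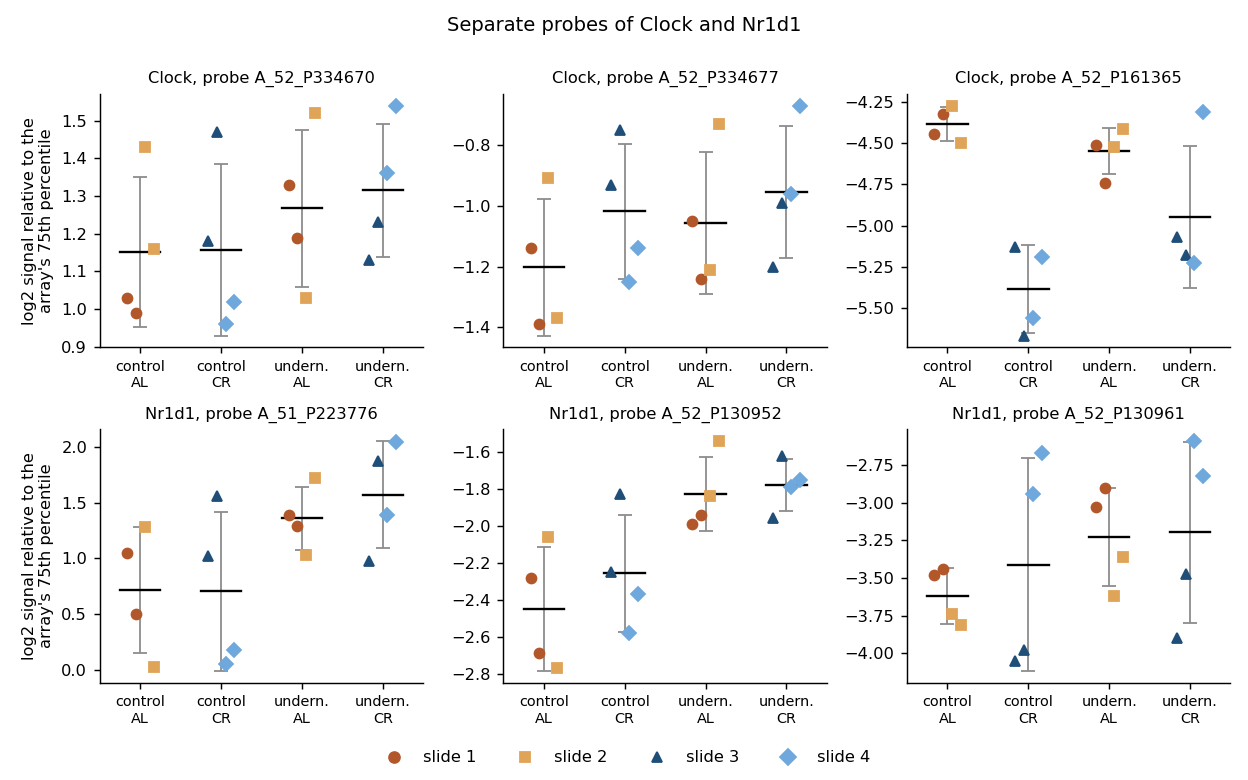
Log2 signal relative to the array's 75th percentile (y axis) of the 3 probes of Clock (top) and of Nr1d1 (bottom) by diet group (x axis). Points are arrays marked by slide, lines are means and bars 1 SD (n = 4). The dimmest Clock probe is lower in control CR, and the dimmest Nr1d1 probe separates slide 3 from slide 4.

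Within groups, Arntl and Nr1d1 varied more among the pools than Nr1d2 did. The SD of Arntl was 0.42 to 0.77 and that of Nr1d1 0.28 to 0.71, while that of Nr1d2 was 0.36 in control AL and 0.05 to 0.13 in the other 3 groups. These spreads were not compared by a test. Ranked by signal, the 4 pools had the same order for Arntl and Nr1d1 in 3 of the 4 groups, all but control CR. For instance, undernourished CR replicates 1, 3, 2 and 4 were in rising order for both genes. Of the 15 pairs of members, 10 had the same order in no group, 3 in 1 group and 1, Clock with Nr1d1, in 2 groups. The pools share arrays and scaling, and this pattern was noticed in the data and was not tested.

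The genes whose profiles over the 16 arrays lay nearest to that of a member were sought among 14946 genes with a symbol, by the root mean square difference of centred log2 values. Nearest to Arntl, whose own profile has a root mean square of 0.76, were Fam13c (0.24), Twf2 (0.29) and Slc16a9 (0.31). Genes chosen in this way share the diet differences of Arntl by construction, so tests of them on the same arrays are no separate evidence. Fam13c fell under restriction by 0.95 ± 0.28 in control and by 0.92 ± 0.28 in undernourished offspring (limma, adjusted p = 0.0195 and 0.0335). With the sign turned, the nearest was Wee1 (0.33), a cell cycle kinase gene known as a direct clock target, followed by D430041D05Rik (0.37) and Slc4a4 (0.39). Wee1 was dim, well above background on 13 of 16 arrays, and rose by 0.90 ± 0.26 and 1.21 ± 0.26 (adjusted p = 0.0167 and 0.00558). Undernourished AL replicate 4 was both the highest pool for Arntl and the lowest for Wee1, at -6.34. The processed signal of Wee1 was 4.79 to 48.2, so its lowest value is limited by signal near background.

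For Nr1d2, with a root mean square of 0.35, the nearest profiles were Coa5 (0.10), Ado (0.11) and Fundc2 (0.11), and with the sign turned Wsb1 (0.11), Cerk (0.15) and Tcf20 (0.15). Nearest to Clock was Seh1l (0.10), to Npas2 Rasgrp4 (0.24), to Nr1d1 Plekhs1 (0.34) and to Rora Rundc1 (0.13). With the sign turned they were Hps4 (0.13), Plk3 (0.26), Pdxk (0.36) and Prelid1 (0.13). No member was among the 3 nearest of another. The own root mean square of Clock was 0.19, of Npas2 0.43, of Nr1d1 0.60 and of Rora 0.25, so their nearest genes were less close, relative to it, than those of Arntl and Nr1d2.

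**Figure D4:**
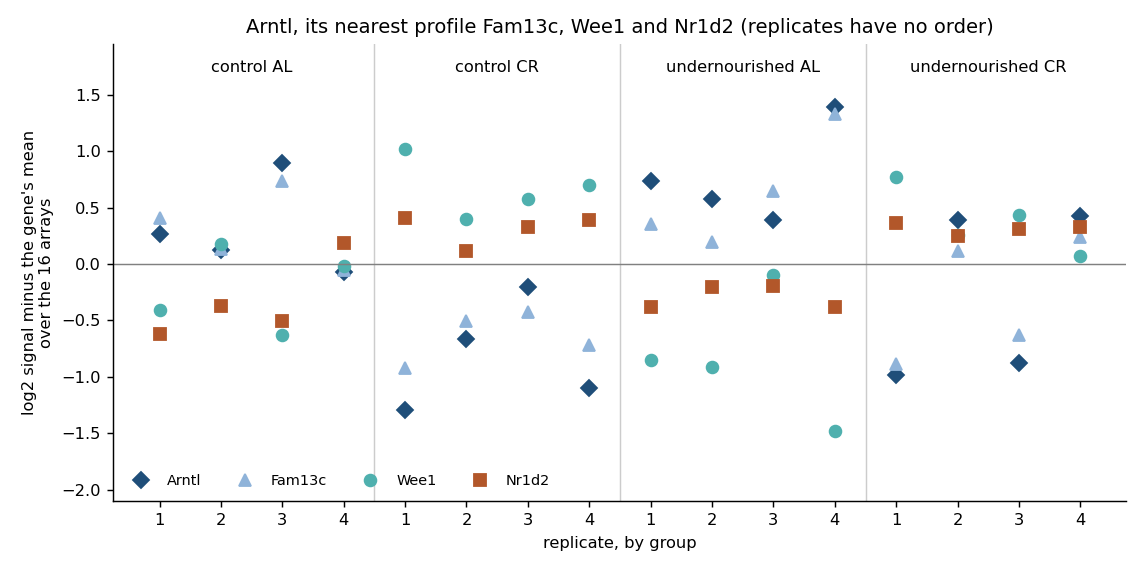
Log2 signal minus the gene's mean over the 16 arrays (y axis) for each array, by replicate and diet group (x axis). Fam13c and Wee1 were chosen from these same arrays for their likeness to Arntl, Wee1 with the sign turned. Nr1d2 is above its mean on all CR arrays and on 1 of 8 AL arrays.

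The other genes of the clock were taken as lists. Under restriction limma called 32.3% of all genes in control offspring, 17.2% higher and 15.1% lower. In undernourished offspring it called 20.3%, 10.4% higher and 9.86% lower. The lists were not tested against these shares. For list counts under other settings the share over all genes is not given here. Of 8 repressors on which Arntl and Clock act, 7 rose and 0 fell under restriction in control offspring, with a median of 1.13. The largest rises were those of Per3 (2.10 ± 0.30), Per2 (1.87 ± 0.26) and Cry1 (1.67 ± 0.19), with limma adjusted p of 0.000204, 0.000152 and 3.73e-05. In undernourished offspring 5 of 8 rose, with a median of 0.68, led by Per2 (1.63 ± 0.26), Cry1 (0.95 ± 0.19) and Per3 (0.89 ± 0.30), with adjusted p of 0.000846, 0.00341 and 0.0497. Per1 stood at 0.93 ± 0.24 in control and at -0.01 ± 0.24 in undernourished offspring (adjusted p = 0.00814 and 0.974), and its interaction was -0.94 ± 0.34 (adjusted p = 0.493). The count in undernourished offspring dropped to 3 without undernourished CR replicate 2 or 3. With the linear brain covariate 4 were called in each kind of offspring, and without the 5 arrays named above 3 in each. With the log2 brain covariate 0 were called in either, with Per2 at 1.57 and 1.41 (adjusted p = 0.312 and 0.157). Normexp background correction called 3 in undernourished offspring. The Per3 call in undernourished offspring held in only 4 of 16 fits that left out 1 array each, with differences of 0.67 to 1.19 and adjusted p up to 0.141.

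Of 5 output genes, which the clock drives and which act on fuel use and detoxification, 3 rose in each kind of offspring and 0 fell. Of all genes 17.2% were called higher in control and 10.4% in undernourished offspring. In control offspring the 3 outputs were Usp2 (1.49 ± 0.21), a deubiquitinase, Dbp (1.34 ± 0.28), a transcription factor used as a readout of E-box activity, and Tef (0.53 ± 0.14), with adjusted p of 0.000173, 0.00221 and 0.0117. In undernourished offspring they were Dbp (1.77 ± 0.28), Usp2 (1.08 ± 0.21) and Hlf (1.0 ± 0.27), with adjusted p of 0.000759, 0.00319 and 0.0177. Nfil3, which opposes Dbp, Tef and Hlf at the same sites, differed by 0.12 ± 0.49 and -0.64 ± 0.49 (adjusted p = 0.878 and 0.383). Without the 5 arrays, 1 of the 5 outputs was called in control and 3 in undernourished offspring, and with the log2 brain covariate 1 in each.

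Of the 7 kinases and ubiquitin ligases, which act on the life span of clock proteins, 6 were measured. Limma called 32.3% of all genes in control and 20.3% in undernourished offspring. In control offspring 1 of the 6 rose and 1 fell, near the share there. Btrc, the ligase of Period proteins, rose by 0.78 ± 0.14 and Fbxw7 fell by 0.99 ± 0.17 (adjusted p = 0.00101 and 0.000763). In undernourished offspring 0 rose and 2 fell, Fbxw7 by 0.82 ± 0.17 and the kinase gene Csnk1d by 0.58 ± 0.14 (adjusted p = 0.00483 and 0.0105). In the authors' deposited log2 values Csnk1d stood at 0.03 there. Array-median scaling and the authors' values each called 4 of the 6 in control offspring, and the linear brain covariate called 1. Without the 5 arrays 0 were called there and 1 in undernourished offspring, where the mean over a gene's probes also called 1. Fbxl21 was not among the genes tested.

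Of all genes 32.3% were called in control and 20.3% in undernourished offspring. Of 11 cofactors that the 6 proteins recruit, 5 rose and 2 fell in control offspring. Ppargc1b, a coactivator of nuclear receptors, rose by 1.03 ± 0.22, while the acetyltransferase genes Crebbp and Ep300 fell by 0.84 ± 0.16 and 0.78 ± 0.18 (adjusted p = 0.00304, 0.00153 and 0.00475). The Crebbp probe was dim, with a processed signal of 21.3 to 55.6, though well above background on all 16 arrays. The corepressor gene Ncor1 and its deacetylase partner Hdac3, through which REV-ERB proteins silence genes, rose by 0.46 ± 0.10 and 0.52 ± 0.09 (adjusted p = 0.00262 and 0.000913). Without the 5 arrays 0 of the 11 were called in control and 7 in undernourished offspring. In undernourished offspring 4 rose and 3 fell, with Ppargc1b at 1.06 ± 0.22, Crebbp at -1.24 ± 0.16 and Ep300 at -0.85 ± 0.18 (adjusted p = 0.00491, 0.000253 and 0.00532), and Ncor1 at 0.43 ± 0.10 and Hdac3 at 0.46 ± 0.09 (adjusted p = 0.00682 and 0.00407).

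Of 10 genes known to be under the clock in muscle, 3 rose and 2 fell in each kind of offspring. The share of all genes called was 32.3% in control and 20.3% in undernourished offspring. Myod1, the myogenic regulator, rose by 2.33 ± 0.41 and 1.48 ± 0.41 (adjusted p = 0.000739 and 0.0197), and Pdp1, which activates pyruvate dehydrogenase, by 1.2 ± 0.24 and 1.23 ± 0.24 (adjusted p = 0.00185 and 0.0031). Pdk4, the kinase that inhibits pyruvate dehydrogenase, fell by 2.97 ± 0.88 and 2.72 ± 0.88 (adjusted p = 0.0187 and 0.0419). The Pdk4 call in control offspring was lost without control CR replicate 1 (-2.21) or 2 (-2.51), and in undernourished offspring without 8 of the 16 arrays in turn, where adjusted p was 0.0501 to 0.121. That of Myod1 in undernourished offspring was lost without undernourished AL replicate 3 or undernourished CR replicate 1 or 3 (adjusted p from 0.0563 to 0.0615). Without the 5 arrays 0 of the 10 were called in control and 4 in undernourished offspring, and the authors' values called 8 in control offspring.

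**Figure D5:**
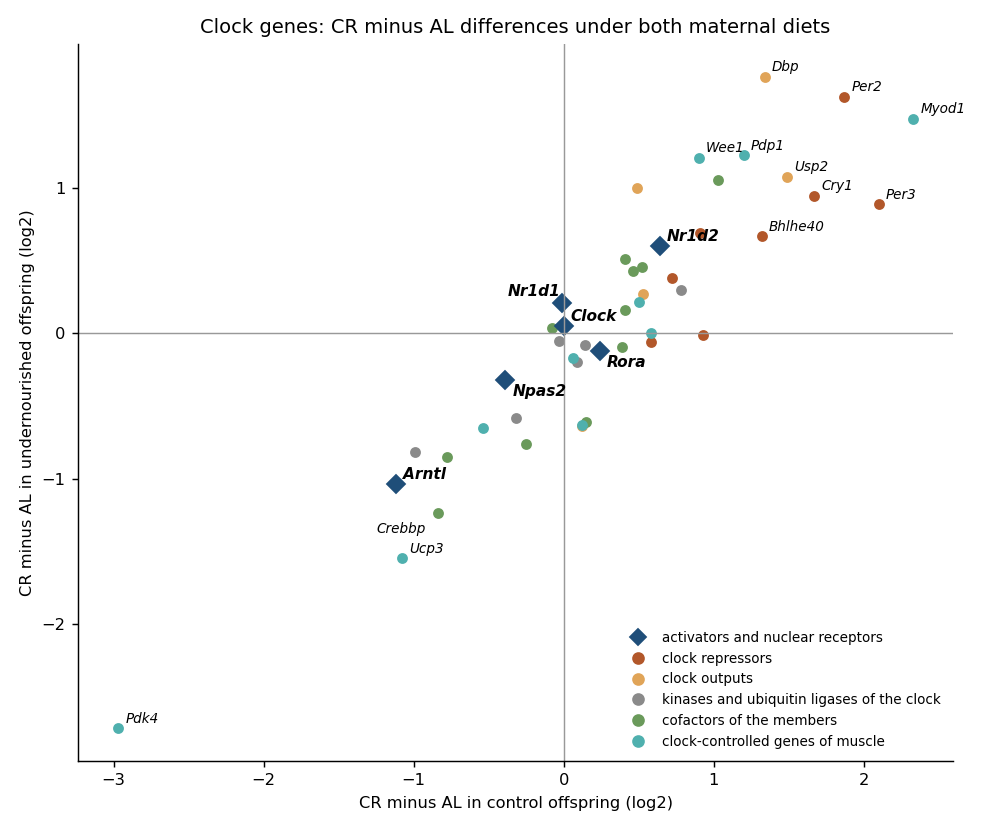
CR minus AL difference in log2 units in control offspring (x axis) against that in undernourished offspring (y axis), 1 point per measured gene, from limma (n = 4 arrays per group). Diamonds are the 6 activators and nuclear receptors, circles the other clock genes described here, by list. Arntl lies among the lowered genes at -1.12 and -1.04, Nr1d2 at 0.64 and 0.60 beside the raised repressors and outputs.

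By maternal diet, 0 genes of these 5 lists were called in either offspring diet by limma. The medians of the repressors were 0.46 in freely fed and -0.22 in restricted offspring of undernourished against control dams, beside 0.07 and 0.00 over all genes.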

How the data were processed

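RNA of 16 muscle pools was labelled with Cy3 and hybridised to 1-colour Agilent mouse arrays, per the labels' protocols. The authors deposited 1 scanner file per array, made with Agilent Feature Extraction 10.5.1.1 per the submitters' processing notes. The deposited intensity used is the processed signal, which per the file headers is background-corrected within the array. Flags of 0 or 1 for spots well above background or outlying are also deposited. The authors' deposited log2 table is centred on each probe's median, per its values. Its scale and normalization are not given in the sources used here, and its differences followed the scanner files with a median slope of 0.816 and correlation of 0.957. Its column medians ran from -0.0994 to 0.037.

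Outlier and control spots were left out. From log2 signals each array's 75th percentile (387 to 829) was subtracted, a probe was kept if at least 4 arrays had it well above background (32081 of 41174), and each gene was given its brightest probe. Per array 66.4% to 78.5% of spots were well above background, and the number of arrays limits precision. Probes were named through RefSeq accessions (GRCm38.p6), with 24844 matched and 16330 not. limma 3.58.1 in R 4.3.3 fitted 1 mean per group, two-sided, with Benjamini-Hochberg adjustment over 24828 genes, and was tested on simulated data. The 4 pairwise comparisons and the interaction used this fit, as did the averages over a diet, while slide comparisons used 1 mean per group and slide. Replicates are pools that may share dams. Same-numbered AL pools deviated together (correlations of 0.11 to 0.44 over genes) and share slides. Same-numbered CR pools also share slides, with correlations of 0.02 to 0.23.

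All 6 members are named for restriction in each kind of offspring, and only some of them by maternal diet, interaction and slide. From each list up to 3 called genes with the largest change under restriction are named. For each member the 3 nearest profiles of each sign were computed. Other genes named (Stab2, Zfp385b, Cyp3a11, Acaca, Per1, Nfil3, Ncor1 and Hdac3) were chosen after their values were seen. Members and lists were chosen with earlier results of these data known, and some related genes are not reported here. Alternatives were other scalings, background correction (normexp with an offset of 50, on the median spot signal), filters, probe rules, the authors' values, brain covariates, left-out arrays and blocks.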

Additional observations from a re-analysis of the deposited data

How the results depend on the processing

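Of 1527 values of the 6 genes recomputed under alternatives, 1465 kept their direction and their side of the threshold or stayed uncalled (134 of these changed sign while uncalled), 35 lost a call, 23 gained one and 4 turned round. Most of the differences recomputed were uncalled to begin with, and many alternatives leave out 1 array and share most data. The 1465 therefore do not measure how stable the calls are. Those 4 were Nr1d2 under the log2 brain covariate (-0.19 in control, -0.01 in undernourished offspring and -0.10 averaged) and Rora in undernourished offspring with the authors' values (0.46). That covariate separates the offspring diets completely, and it also turned Fbxw7 (0.64, 0.37 and 0.50). The authors' values turned Csnk1d in undernourished offspring (0.03) and averaged (0.09). The causes of these changes were not tested.

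Of the 6 genes, the 2 calls in control offspring became 1 with either brain covariate (Npas2, both others lost) or the slide as a random block (Nr1d2, correlation 0.138) and 0 without the 5 arrays. They became 3 with normexp (Npas2 added) and with the authors' values, where Nr1d2, Clock (0.47) and Rora (0.70) were called and Arntl was not. With array-median scaling the count stayed 2, but Rora took the place of Arntl. The 1 call in undernourished offspring became 3 with normexp or the authors' values and 2 with quantile normalization, no filter, probes above background on all arrays or an intensity trend with a robust prior. The 2 averaged calls became 4 with the authors' values, which lost Arntl (-0.55) and added Clock (0.52), Nr1d1 (0.59) and Rora (0.58). They became 3, by Npas2, with normexp (-0.49) or the linear brain covariate (-0.84), and 1 without the 5 arrays (Nr1d2, Arntl lost) or with the log2 brain covariate (Npas2 at -2.57, the others lost). The 2 slide calls in AL became 1 with normexp, quantile normalization, no filter, the strict filter or the authors' values, and 0 with either brain covariate. Leaving out 1 array gave 1 to 2 calls in control, 1 to 2 in undernourished offspring and 0 to 2 for the AL slides. With the replicate block, 2 members were called in control and 1 in undernourished offspring, and 3 rather than 2 on average, the added one being Npas2, at -0.36. Arntl was between -1.38 and -0.46 in either kind of offspring under the settings other than leaving out 1 array. For the counts of the 6 genes under other settings the share over all genes is not given here. Those counts are therefore no result about the 6 genes as a set.

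Npas2 and the dimmest Clock probe are limited by signal near background, and the probes of Crebbp, Cyp3a11 and Wee1 were also dim. No group of 4 arrays among the 44 of the 11 probes had an array far from the rest by Dixon's test, the largest gap being 0.826 of the range, under the critical value.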
